A study of Mus musculus with 6 samples.

Results

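A set of 10 genes of the Hippo pathway and its YAP/TEAD output, among 39234 genes in the deposited table, was described in HK-2 cells with and without USAG-1 overexpression. They are ANKRD1, CCN1, CCN2, AMOTL2, AJUBA, LATS2, AXL, YAP1, WWTR1 and TEAD1, matched by gene symbol, and 10 of 10 passed the filter on low counts. The genes were chosen on a measured value, because of the size of the rise of ANKRD1 in this same contrast (place 74 of the 18188 genes tested, by log2 fold change), so their differences between the groups are a description and carry no p-value of their own. HK-2 is an immortalized line of human proximal tubular epithelial cells, labelled wild type. The 3 control libraries (Cont1 to Cont3) and the 3 libraries with USAG-1 overexpression (USAG1_OE_1 to USAG1_OE_3) differed in USAG-1 overexpression only, as far as the labels say. According to the study's methods, overexpression in cells was by transient transfection of a plasmid, and no authentication of the line by short tandem repeats was done. What the control cells received is not given in the labels, nor is the time of harvest. The organism is labelled as mouse, but HK-2 is a human line and the gene identifiers are human. The study's methods speak of biological replicates for most experiments without naming this one, and the labels do not say whether the 3 replicates came from separate cultures, so the errors below measure the spread between libraries, which may be technical.

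The Hippo pathway is a kinase cascade that restrains the related co-activators YAP (YAP1) and TAZ (WWTR1). When the kinases MST1/2 and LATS1/2 are inactive, YAP and TAZ enter the nucleus, bind the TEAD transcription factors and switch on genes such as CCN1, CCN2 and ANKRD1. Some of these targets, including LATS2 and AMOTL2, encode inhibitors of YAP and so form a feedback loop. In kidney tubules the pathway is known for its roles in epithelial growth, repair after injury and fibrosis. YAP is controlled mainly by phosphorylation and localization, which RNA sequencing does not measure.

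Library totals ranged from 41236194 to 48699471 counts, at which 3 counts correspond to 0.0608 to 0.0719 CPM (counts scaled to library size). SOSTDC1, which encodes USAG-1, was counted 79, 80 and 60 times in control replicates 1 to 3 against 5072, 3907 and 4438 times with overexpression, the order the labels give. Control replicate 3 stood apart, with a chi-square per degree of freedom of 47.0 and 48.1 to the other controls, against 6.79 to 8.70 for every other pair within a group. Of the transcripts that define proximal tubule, LRP2 had no count in any library, CUBN and AQP1 were at most 0.359 and 0.188 CPM, and GGT1 was between 85.1 and 164 CPM. SLC34A1, SLC5A2 and ANPEP were at most 0.588, 2.07 and 3.61 CPM. Among renal epithelial markers, the transcription factor PAX8 was between 365 and 455 CPM. PAX2 was between 0.0811 and 0.328 CPM, and CDH1 was at most 0.206 CPM. The others (CDH2, EPCAM, KRT8, KRT18 and KRT19) were at 28.7 CPM or more in every library. T cell markers, 8 of 8 called lower, summed to between 53.4 and 67.1 CPM in control libraries and to between 4.01 and 4.62 CPM in overexpressing ones, and mitochondrially encoded genes took 5.29 ± 0.426% of control counts and 1.53 ± 0.0255% of overexpressing counts (SD, n = 3 each). Myeloid markers summed to between 97.2 and 125 CPM in control and to between 130.4 and 151 CPM in overexpressing libraries, with 1 of 5 called higher and 2 lower. The rise of that sum was due to CD68 (log2 fold change 0.66), the marker called higher. ITGAM (-1.20) and LYZ (-0.73) were called lower, and CSF1R (-0.99) and CD14 (-0.27) were negative and not called. The part of these differences in the results below was not tested.

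**Figure D1:**
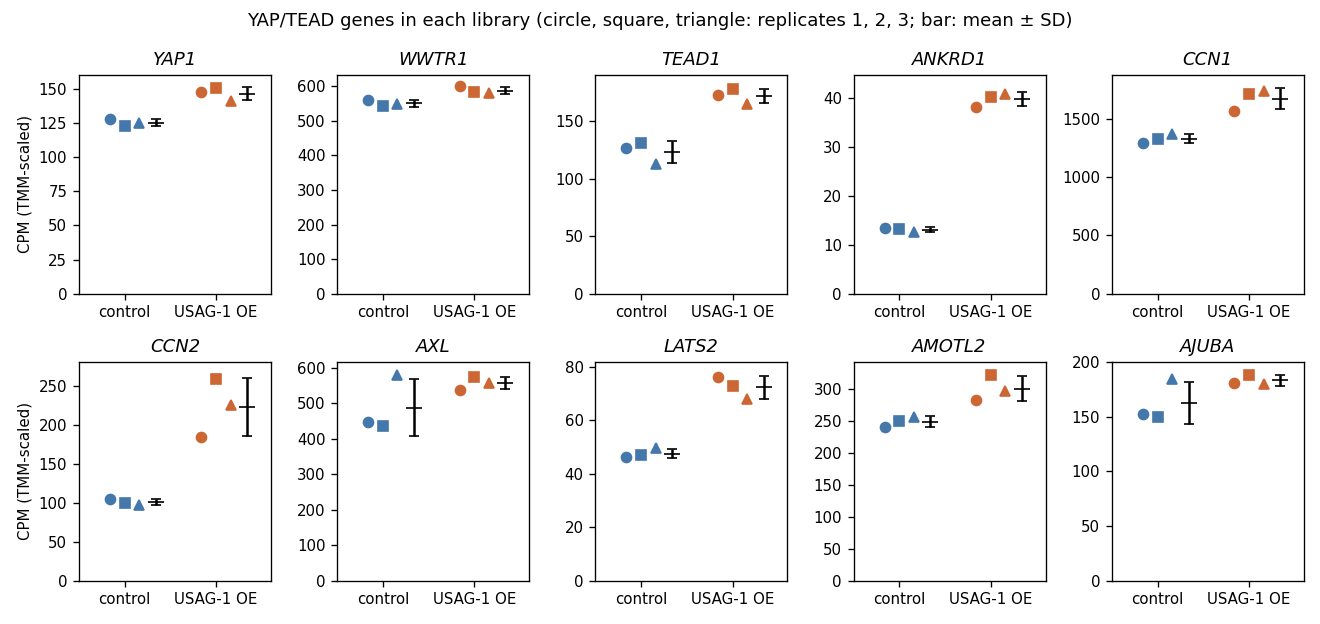
Level of each of the 10 genes in each library, in TMM-scaled CPM on a linear axis from 0, with the mean and SD of 3 libraries per group beside the points. As a fold, the groups are furthest apart for ANKRD1 (13.1 against 39.7 CPM), whereas the triangle of control replicate 3 lies among the overexpressing libraries for AJUBA and above them for AXL.

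Of the 10 genes, 7 were called higher in USAG-1-overexpressing cells and none lower. They were ANKRD1, CCN2, LATS2, TEAD1, CCN1, AMOTL2 and YAP1. Differences in AXL, AJUBA and WWTR1 did not pass the threshold. A call means an adjusted p under 0.05 in edgeR's quasi-likelihood test, fitted on all 18188 genes that passed the filter with Benjamini-Hochberg adjustment over all of them. Among these, 15.9% were called, 8.95% higher and 6.91% lower. Since ANKRD1's rise in this contrast led to the choice of the genes, nothing is read from the count of 7. The median log2 fold change was 0.30 over the 10 genes and -0.02 over all genes tested. In 8 of the 10 genes the groups did not overlap in CPM, a property of 37.6% of all genes tested. All values are from bulk RNA, in which a change in the number of cells that express a gene and a change in RNA per cell cannot be told apart. The table gives no transcript lengths, so CPM values are compared between libraries and not between genes.

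ANKRD1 (ENSG00000148677; hg38 chromosome 10, 90912096 to 90921087, minus strand) encodes an ankyrin repeat protein of the nucleus and sarcomere and is among the most widely used YAP readouts. It had 13.4, 13.3 and 12.5 CPM in control replicates 1 to 3 and 38.2, 40.2 and 40.8 CPM in overexpressing replicates 1 to 3. Every overexpressing library was above every control library, and the distance between the groups was far wider than the spread inside either. The counts behind these levels were 533 to 656 in control and 1752 to 1762 in overexpressing libraries. The group means of 13.1 ± 0.481 and 39.7 ± 1.39 CPM (SD, n = 3 each) correspond to a log2 fold change of 1.61 (standard error 0.07), which is 3.04-fold. With 1 library left out in turn, the log2 fold change of ANKRD1 lay between 1.58 and 1.63.

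CCN2 (ENSG00000118523; chromosome 6, 131948176 to 131951372, minus strand), formerly CTGF, encodes a secreted matricellular protein linked to fibrosis. Its levels were 105, 99.1 and 97.6 CPM in control cells and 184, 258 and 225 CPM in USAG-1-overexpressing cells. The overexpressing libraries were all higher but spread widely, with replicate 1 lowest and replicate 2 highest. The log2 fold change was 1.15 (standard error 0.11), or 2.21-fold, and it lay between 1.03 without overexpressing replicate 2 and 1.27 without overexpressing replicate 1.

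CCN1 (ENSG00000142871; chromosome 1, 85580761 to 85583950, plus strand), formerly CYR61, encodes the related matricellular protein that supports adhesion and migration through integrins. It had 1294, 1325 and 1370 CPM in control cells and 1569, 1717 and 1738 CPM in overexpressing cells. The groups did not overlap, and the rise was modest, with a log2 fold change of 0.33 (standard error 0.06) or 1.26-fold. With 1 library left out it lay between 0.31 and 0.38.

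AXL (ENSG00000167601; chromosome 19, 41219223 to 41261766, plus strand) encodes a receptor tyrosine kinase of the TAM family. Its levels were 447, 437 and 579.9 CPM in control cells and 539, 574 and 558 CPM in overexpressing cells. Control replicate 3 was the highest of the 6 libraries, so the groups overlapped. The log2 fold change of 0.19 (standard error 0.11) did not pass the threshold, and its 95% interval ran from -0.05 to 0.43. Without control replicate 3 it was 0.34 and was called.

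Of LATS2, AMOTL2 and AJUBA, the largest difference was that of LATS2 (ENSG00000150457; chromosome 13, 20973036 to 21061586, minus strand), a kinase that phosphorylates YAP and TAZ. It had 46.1, 46.8 and 49.5 CPM in control cells and 76.1, 73.0 and 67.8 CPM in overexpressing cells. The groups were well separated, with a log2 fold change of 0.61 (standard error 0.07) or 1.52-fold, and between 0.57 and 0.65 with 1 library left out.

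AMOTL2 (ENSG00000114019; chromosome 3, 134355347 to 134374560, minus strand), an angiomotin that holds YAP at cell junctions and actin, had 241, 250.02 and 257 CPM in control cells and 282, 323 and 298 CPM in overexpressing cells. The groups did not overlap. The log2 fold change was 0.27 (standard error 0.06), and it stayed past the threshold without control replicate 3 (0.30) and without overexpressing replicate 1 (0.32), but not without control replicate 1 (0.25), without control replicate 2 (0.27), and without overexpressing replicate 2 (0.22) or 3 (0.28), nor without the filter on low counts (0.27).

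AJUBA (ENSG00000129474; chromosome 14, 22971177 to 22982551, minus strand) encodes a LIM-domain protein that binds and inhibits LATS kinases at tense junctions, and so favours YAP activity. Its levels were 153, 149.9 and 185 CPM in control cells and 181, 189 and 180.3 CPM in overexpressing cells. Control replicate 3 lay within the range of the overexpressing libraries, so the groups overlapped. The log2 fold change of 0.17 (standard error 0.09; 95% interval -0.02 to 0.37) did not pass the threshold, and it was 0.28 and called without control replicate 3.

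The co-activators and their DNA-binding partner differed less than the strongest targets. YAP1 (ENSG00000137693; chromosome 11, 102110447 to 102233424, plus strand) had 128, 123 and 125 CPM in control cells and 148, 151 and 141 CPM in overexpressing cells. Both groups were tight and did not overlap. Its log2 fold change was 0.23 (standard error 0.05), or 1.17-fold, and the call was lost in 5 of the 6 fits with 1 library left out, in which the value lay between 0.21 and 0.26 (0.24 without control replicate 1, 0.21 without control replicate 2, and 0.22, 0.21 and 0.26 without overexpressing replicates 1, 2 and 3). It remained a call without control replicate 3.

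WWTR1 (ENSG00000018408; chromosome 3, 149517235 to 149736714, minus strand), which encodes TAZ, had 561, 543 and 547 CPM in control cells and 600.01, 582 and 580.3 CPM in overexpressing cells. These groups did not overlap either, but the distance between them was small. The log2 fold change was 0.09 (standard error 0.05), not past the threshold, with a 95% interval from -0.02 to 0.20. Any rise in WWTR1 RNA above 1.15-fold lies outside that interval. Without control replicate 3 the value was 0.10 and was called.

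TEAD1 (ENSG00000187079; chromosome 11, 12674421 to 12944737, plus strand) encodes 1 of the 4 TEAD factors. It had 126, 131 and 113 CPM in control cells and 172, 177 and 165 CPM in overexpressing cells. The lowest overexpressing library was well above the highest control. The log2 fold change was 0.48 (standard error 0.07), or 1.39-fold, and with 1 library left out it was lowest, at 0.42, without control replicate 3.

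**Figure D2:**
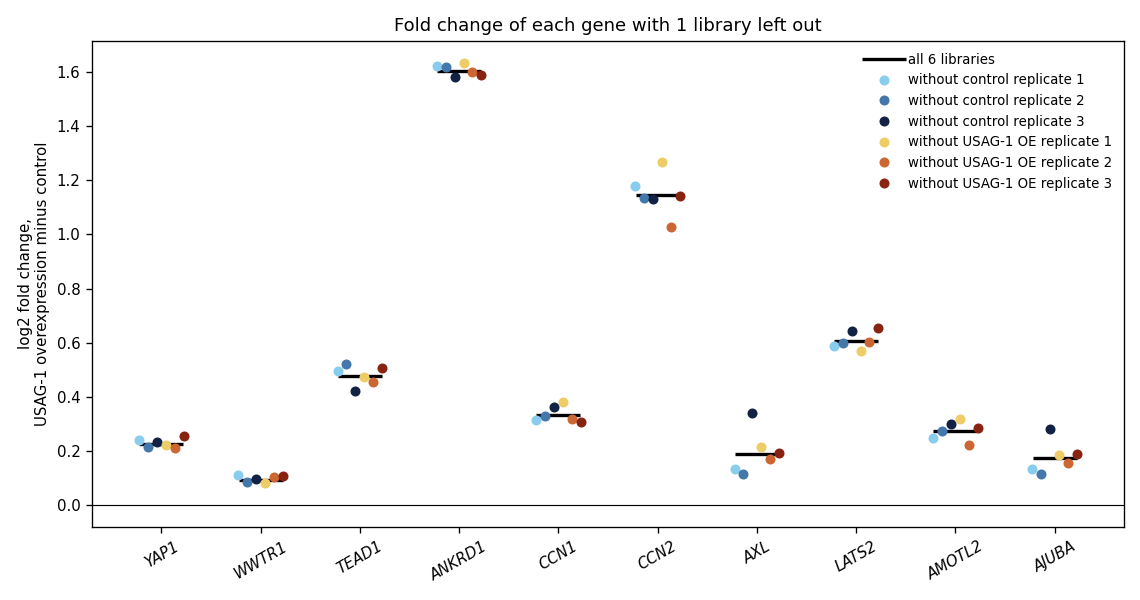
Log2 fold change (USAG-1 overexpression minus control) of each of the 10 genes with all 6 libraries (black bar) and with each library left out in turn (points). All values are above 0, and leaving out control replicate 3 moves AXL from 0.19 to 0.34 and AJUBA from 0.17 to 0.28.

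Control replicate 3 thus had opposite places in different genes. Measured as log2 CPM against the mean of its group, it was 0.26 higher for AXL, 0.19 higher for AJUBA, 0.13 lower for TEAD1 (-0.13) and 0.06 lower for ANKRD1 (-0.06). The cytoskeletal actin gene ACTB also stood high there, with 7898 CPM against 5989 and 6001 CPM in control replicates 1 and 2. Without this library 10 of the 10 genes were called higher, but calls were also made more often in general. That fit called 27.0% of 18866 genes tested in either direction, 2985 genes higher and 2106 lower.

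Of the 10 genes, 7 overlap another annotated gene. The overlapping genes had at most 88 counts in any library, the most being an unnamed antisense gene at YAP1. For CCN2 the antisense gene CCN2-AS1 had 17 to 45 counts, against 4161 to 11284 for CCN2 itself. Whether reads were counted by strand is not given in the sources used here.

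Because genes in 1 library share its depth, the ratio of their counts does not depend on scaling. The ratio of CCN2 to CCN1 was 0.0812, 0.0748 and 0.0712 in control libraries and 0.117, 0.151 and 0.129 in overexpressing libraries. CCN2 thus rose further than CCN1, by 1.75-fold on this ratio, with no overlap between the groups. ANKRD1 moved further still, and its ratio to CCN1 was 0.00983 ± 0.000628 in control and 0.0237 ± 0.000503 in overexpressing libraries (SD, n = 3 each). Against CCN2, ANKRD1 went from 0.127, 0.134 and 0.128 to 0.207, 0.155 and 0.181. Both ratios were higher in every overexpressing library than in any control library. Since ANKRD1 was chosen for the size of its rise, nothing is read from its ratios. For single genes, the groups did not overlap in 37.6% of all genes tested, and no such share was computed for ratios of other gene pairs. The direction of each ratio follows from the fold changes of its genes given above and below, so the ratios add no separate evidence. The ratio of YAP1 to WWTR1 was 0.228 ± 0.00121 in control and 0.250 ± 0.00794 in overexpressing libraries (SD, n = 3 each). Of 7 ratios computed, that of CCN1 to TEAD1 overlapped between the groups, with 10.2, 10.1 and 12.1 in control and 9.10, 9.68 and 10.5 in overexpressing libraries.

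**Figure D3:**
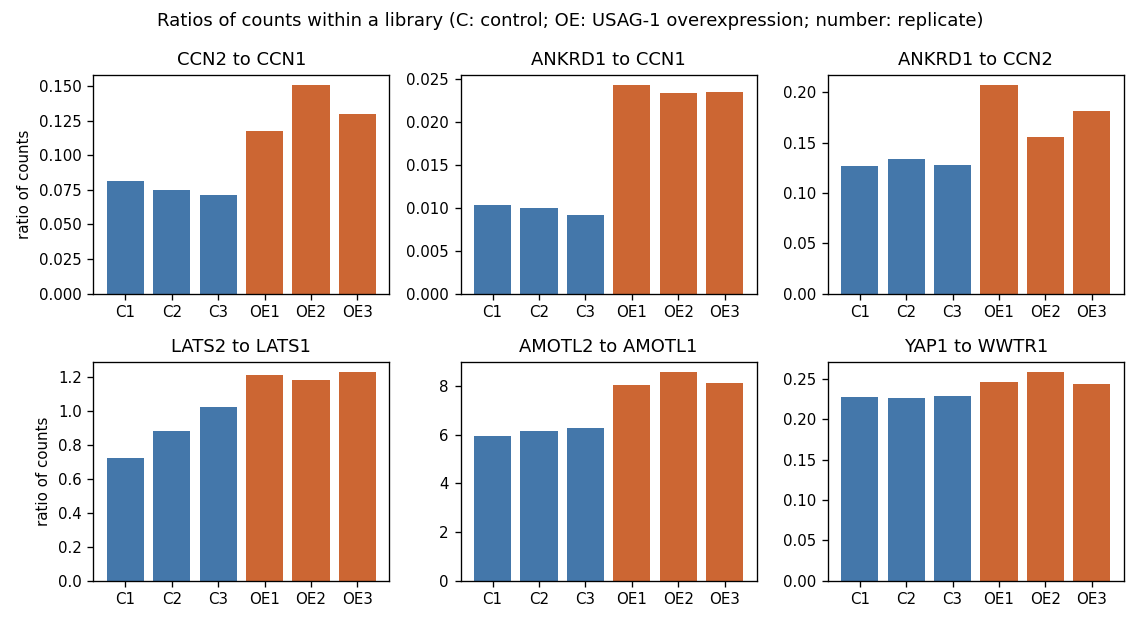
Ratios of counts between pairs of genes within each library (blue, control replicates 1 to 3; orange, USAG-1 overexpression replicates 1 to 3; axes start at 0). In the 6 pairs drawn, of 7 computed, every overexpressing library is above every control library, from 0.0712 to 0.0812 against 0.117 to 0.151 for CCN2 to CCN1. The direction of each ratio follows from the fold changes of the genes in it, and no share over other gene pairs was computed. The pairs with ANKRD1 hold the gene that was chosen for its rise, so nothing is read from them.

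Close relatives of the 10 genes did not all move alike. Of 15 paralogs and ligands, 13 passed the filter, 4 were called higher (AMOT, MERTK, PROS1 and CCN3), none lower, and 9 were not called, where 8.95% of all genes tested were called higher. The count was 2 with any 1 of the overexpressing replicates left out. ANKRD2 and ANKRD23, the other muscle ankyrin repeat proteins, had 3.59 ± 0.578 and 0.482 ± 0.244 CPM in control cells against 3.63 ± 0.923 and 0.600 ± 0.169 CPM in overexpressing cells (SD, n = 3 each), and their standard errors of 0.22 and 0.48 on the log2 scale leave room for sizeable changes. ANKRD23 also overlaps ANKRD39 on its own strand, which had 335 to 516 counts against 11 to 34 for ANKRD23. CCN3, an inhibitor of growth in several cell types, went from 49.2 ± 3.97 to 61.0 ± 3.16 CPM (SD, n = 3 each), and its log2 fold change was 0.31 (standard error 0.08, edgeR adjusted p = 0.0309). CCN5 was below 3 CPM on average in both groups (log2 fold change 0.41, standard error 0.41). CCN4 had no count in any library, and CCN6 had 3 counts in control replicate 3 alone.

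The angiomotins split. AMOT rose from 13.5 ± 0.455 to 21.7 ± 2.21 CPM (SD, n = 3 each; log2 fold change 0.68, standard error 0.10, edgeR adjusted p = 0.00350), whereas AMOTL1 had 40.6 ± 0.175 and 36.4 ± 1.29 CPM (log2 fold change -0.16, edgeR adjusted p = 0.117) and was not called. The ratio of AMOTL2 to AMOTL1 counts was 5.95, 6.16 and 6.30 in control libraries and 8.07, 8.59 and 8.14 in overexpressing ones. For LATS1, the partner kinase of LATS2, the log2 fold change was 0.12 (standard error 0.11) which was not called, and the ratio of LATS2 to LATS1 counts went from 0.722, 0.880 and 1.03 to 1.21, 1.18 and 1.23. The AJUBA relatives LIMD1 (-0.19) and WTIP (0.25) were not called.

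In the TAM receptor family, MERTK, which clears apoptotic cells, went from 18.7 ± 2.03 to 29.4 ± 1.08 CPM (SD, n = 3 each), with a log2 fold change of 0.66 (standard error 0.09, edgeR adjusted p = 0.00324). This difference was larger than that of AXL, although the 2 genes were not tested against each other. TYRO3, with a value of 0.24 (standard error 0.14), was not called. Of the ligands, PROS1 rose by 0.30 (edgeR adjusted p = 0.0248), and GAS6, at -0.09, was not called.

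Other genes of the pathway were taken from lists typed from general knowledge, with earlier results of these data known, so the counts called are descriptions. In a signature of 22 YAP/TEAD targets that includes 6 of the genes above, 21 passed the filter, 11 were called higher (8.95% of all genes tested were), none lower, and the median log2 fold change was 0.27. Of the 15 that are not among the 10 genes, 6 were called higher, 9 were not called, and the median was 0.14, beside -0.02 for all genes tested. The number called in the whole signature ranged from 7 without overexpressing replicate 2 to 13 without control replicate 3, all of them higher. In the fit without control replicate 3, 27.0% of all genes tested were called in either direction. GADD45A, a stress-response gene that restrains the cell cycle, had 50.5, 54.0 and 54.6 CPM in control cells and 86.8, 85.9 and 91.4 CPM in overexpressing cells (log2 fold change 0.73, standard error 0.06, edgeR adjusted p = 0.000436). TGFB2, a ligand of the TGF-beta family, had 141, 141 and 139 CPM and 229, 223 and 209 CPM (log2 fold change 0.65, standard error 0.06, edgeR adjusted p = 0.000505). The groups did not overlap in either gene. CRIM1, a membrane protein that binds BMPs, rose by 0.39 and NT5E, the ecto-enzyme CD73, by 0.32 on the log2 scale (edgeR adjusted p = 0.00460 and 0.00878), and the call of NT5E was lost without overexpressing replicate 2 (0.29). CRIM1 overlaps FEZ2, a gene on the other strand with 896 to 1259 counts. The other 2 called genes were ASAP1 (0.29) and ARHGEF17 (0.27). The lowest values in the signature were those of IGFBP3 (-0.16), RBMS3 (-0.16) and CCDC80 (-0.09), none of them called. FOXF2 had no row under that symbol.

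**Figure D4:**
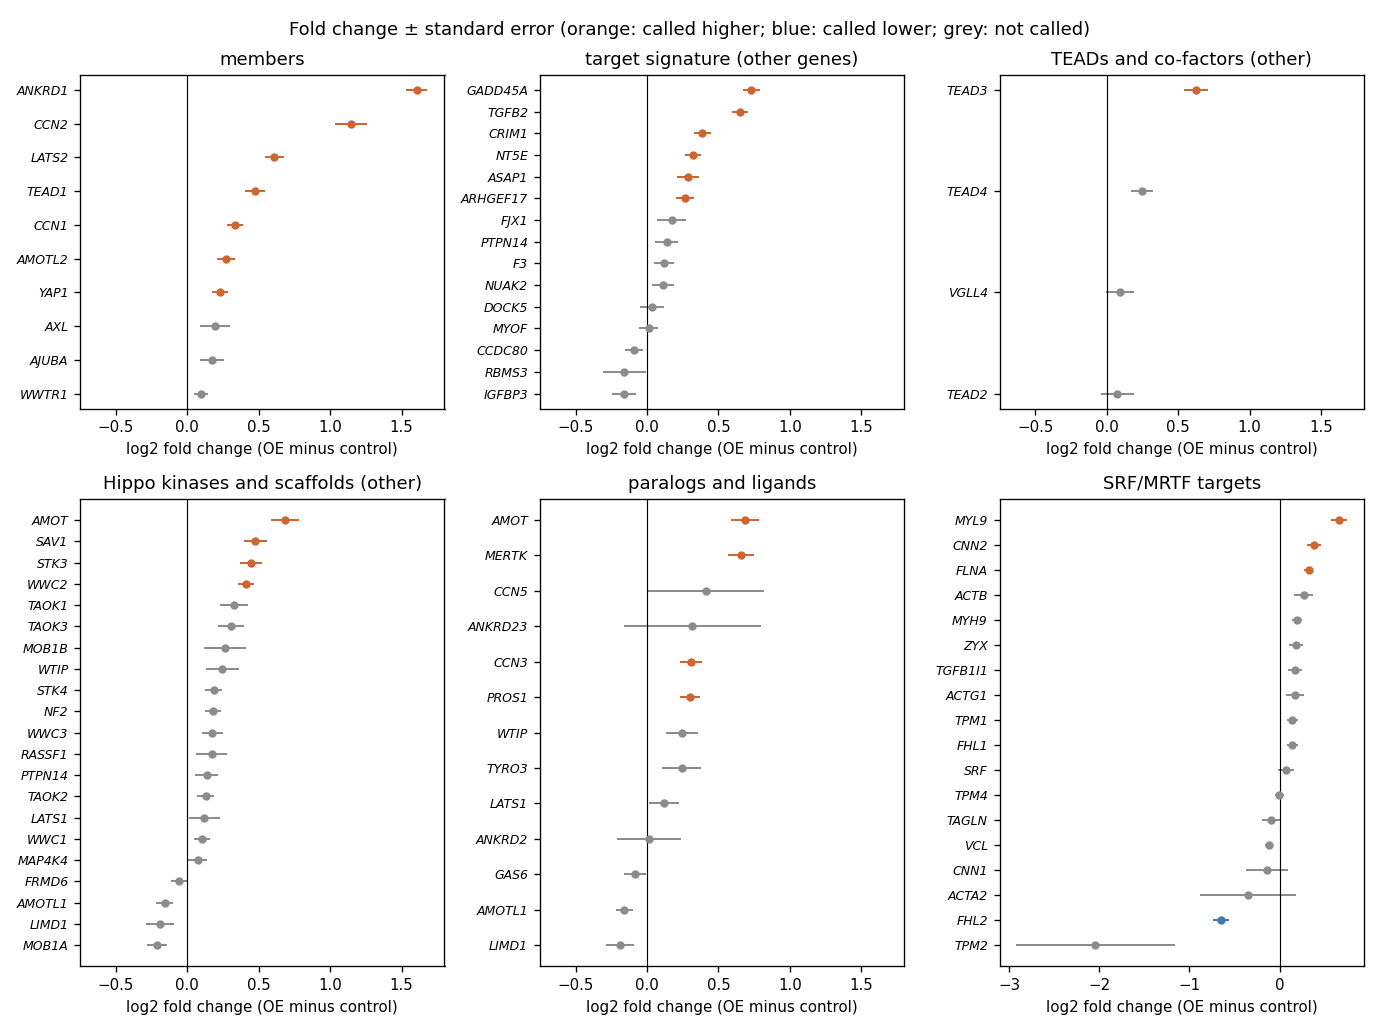
Log2 fold change (USAG-1 overexpression minus control) with its standard error for the 10 genes (members) and for the other genes of each list that passed the filter, with the axis of the SRF/MRTF panel wider than the rest. ANKRD1 (1.61) and CCN2 (1.15) lie furthest right, and FHL2 (-0.64) is the single gene called lower.

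Among 24 kinases, adaptors and scaffolds of the Hippo cascade, 6 were called higher and none lower. Their median log2 fold change was 0.18, beside -0.02 for all genes tested. Of all genes tested, 8.95% were called higher and 6.91% lower. Apart from LATS2 and AMOTL2, the genes called higher were AMOT, SAV1, STK3 and WWC2. SAV1, the scaffold of the MST kinases, went from 19.6 ± 1.33 to 27.2 ± 1.06 CPM (SD, n = 3 each; log2 fold change 0.47, edgeR adjusted p = 0.00703). STK3, which encodes the kinase MST2, rose by 0.45 and WWC2, a KIBRA relative that activates LATS, by 0.41 (edgeR adjusted p = 0.00780 and 0.00243). MOB1A (-0.21), LIMD1, AMOTL1 and FRMD6 (-0.06) had negative values and were not called. The count depended on 1 library, as it was 15 without control replicate 3, of which 14 were higher, and 27.0% of all genes tested were called in that fit.

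Of the 10 TEAD factors and co-factors listed, 8 had rows, 7 passed the filter, and 3 were called higher (YAP1, TEAD1 and TEAD3), beside 8.95% of all genes tested. Of the 4 tested that are not among the 10 genes described first, 1 was called higher (TEAD3). TEAD3 had 22.8, 19.7 and 22.3 CPM in control cells and 32.8, 35.4 and 31.8 CPM in overexpressing cells, and its log2 fold change was 0.63 (standard error 0.08, edgeR adjusted p = 0.00265). For TEAD4 the log2 fold change was 0.25 (standard error 0.08, edgeR adjusted p = 0.0645), past the threshold without control replicate 3 (0.34), with library sizes alone (0.27) and with DESeq2 (0.24). For TEAD2 and for VGLL4, which competes with YAP for TEAD, the values were 0.07 and 0.09, and neither was called. VGLL3 had at most 4 counts. Without control replicate 3, 5 genes of this list were called higher, in a fit that called 27.0% of all genes tested in either direction. The number called was 2 in every other fit with 1 library left out.

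CCN1, CCN2 and ANKRD1 can also be driven by serum response factor (SRF) with its co-activator MRTF, which respond to actin. Of 18 genes listed as SRF/MRTF targets, 3 were called higher, 1 lower, and 14 were not called, with a median log2 fold change of 0.14. The median was also 0.14 for the 15 YAP/TEAD signature genes not among the 10 genes, and -0.02 for all genes tested. Of all genes tested, 15.9% were called in either direction. MYL9, a myosin light chain, had 100.3, 105 and 126 CPM in control cells and 172, 177 and 176 CPM in overexpressing cells (log2 fold change 0.66, edgeR adjusted p = 0.00260). FLNA, which crosslinks actin filaments, rose by 0.33 (edgeR adjusted p = 0.00500), and CNN2, a calponin, by 0.38 (edgeR adjusted p = 0.0166). CNN2 was not called with any library other than control replicate 3 left out (0.33, 0.35, 0.40, 0.37 and 0.38). FHL2, a LIM-only co-regulator and itself an SRF target, moved the other way, from 295, 305 and 367 CPM to 197, 212 and 209 CPM (log2 fold change -0.64, standard error 0.09, edgeR adjusted p = 0.00289). SRF itself had a value of 0.07. TPM2 had the lowest value (-2.04), with a standard error of 0.88, and was not called. Without control replicate 3, 13 of the 18 were called, 11 of them higher and 2 lower, in a fit that called 27.0% of all genes tested.

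The genes whose levels followed ANKRD1 most closely were CAMSAP3, CRY1, ZRANB1, CABLES1 and CIC, with Pearson's r of at least 0.998 for log2 CPM over the 6 libraries. They were picked by r among 11100 genes with a mean of at least 5 CPM, of which 100 had r above 0.99. Over 6 libraries in 2 groups r mostly records the distance between the groups and the tightness within them, and it is given as a description. ZRANB1 and CABLES1 overlap CTBP2 (4359 to 6231 counts) and TMEM241 (221 to 356 counts) on the other strand. CAMSAP3, which binds microtubule minus ends, went from 6.80, 6.61 and 6.52 CPM to 12.4, 12.8 and 12.7 CPM. The circadian repressor CRY1 went from 40.5 ± 1.16 to 64.0 ± 0.929 CPM and the transcriptional repressor CIC from 69.8 ± 1.89 to 102.8 ± 0.852 CPM (SD, n = 3 each). Of the other 9 genes, CCN2 ranked highest, at place 334 with r = 0.976, followed by LATS2 at place 390 with r = 0.972, and AXL ranked lowest at place 3735 with r = 0.577.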

How the data were processed

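RNA of 6 HK-2 libraries, 3 control and 3 with USAG-1 overexpression, was sequenced by the authors as poly(A)-selected, dUTP-stranded paired reads of 150 bases, per the labels, although another label text speaks of rRNA removal. The authors deposited whole-number counts per gene, not normalized, under a file name that speaks of FPKM. The submitters' processing notes name cutadapt 1.9, FastQC and hg38, whereas the aligner, the counting tool and the annotation are not given in the sources used here.

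After a filterByExpr filter and TMM scaling, edgeR 4.0.16 was used in R 4.3.3 (quasi-likelihood, Benjamini-Hochberg over 18188 genes, called at an adjusted p under 0.05). CPM are TMM-scaled, and log2 CPM used a prior count of 2. Standard errors were derived from each log2 fold change and its F statistic. The study's methods name DESeq2 for public array and sequencing series, and version 1.42.0 was run as an alternative, as was limma-voom (limma 3.58.1). Named genes are the 10 genes, the 4 others of each list with the smallest p, all paralogs that passed the filter, and the 5 genes closest to ANKRD1; ASAP1, ARHGEF17, ACTB, SRF, TPM2, MOB1A, FRMD6, IGFBP3, RBMS3 and CCDC80 were chosen after their values were seen. The genes and lists were chosen with earlier results of these data known. The code was tested on simulated data. A search of promoters for the TEAD motif was not run and no sequences are printed, since human sequence was not used here. Counting limits cover counting error only.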

Additional observations from a re-analysis of the deposited data

How the results depend on the processing

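The number of genes called overall was 2884. It was 1917, 1636 and 5091 without control replicate 1, 2 and 3, and 1306, 1137 and 1347 without overexpressing replicate 1, 2 and 3. With a library left out, the 10 genes gave 5 to 10 calls, the target signature 7 to 13, the Hippo kinases and scaffolds 5 to 15, the TEAD factors and co-factors 2 to 5, the paralogs and ligands 2 to 5, and the SRF/MRTF targets 3 to 13, each highest without control replicate 3. The fit without that library called 27.0% of all genes tested. With DESeq2, 3761 of 18188 genes tested and 10 Hippo kinases and scaffolds were called, 9 of these 10 higher and 1 lower. The cause was not tested. The 8 alternatives that keep all libraries gave 6 or 7 calls among the 10 genes, 6 without a filter on low counts (AMOTL2 lost, 0.27) and 6 with the replicate block (YAP1 lost, 0.23). Across 140 alternative values of the 10 genes, none changed sign, 11 lost the call and 3 gained it. Of 476 values of 34 other named genes, 6 changed sign, all of genes near 0 that were not called: VGLL4 without control replicate 3 (-0.00080; range with a library left out up to 0.17), TEAD2 without control replicate 1 (-0.043; up to 0.17), and ANKRD2 with limma-voom (-0.0082), with the replicate block (-0.00020), and without control replicate 1 (-0.09) or overexpressing replicate 3 (-0.21; up to 0.15). PROS1 was not called without control replicate 1 (0.32) or overexpressing replicate 1 (0.29), 2 (0.31) or 3 (0.31). CCN3 was not called with the replicate block (0.31) or without control replicate 2 (0.25) or overexpressing replicate 1 (0.31), 2 (0.28) or 3 (0.35). TYRO3 was called without control replicate 3 (0.42). No scaling moved the median of all genes by over 0.1 on the log2 scale. Libraries with the same replicate number did not deviate together (r = 0.07, -0.05 and 0.04), so the numbers were not taken as pairs, and the highest correlation was that of control replicate 3 with overexpressing replicate 2 (0.11). The replicate block gave 2381 calls overall. Each of the 10 genes had at least 533 counts in every library (the lowest being ANKRD1). The search of promoters was not run.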

Other observations

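The 10 genes together took 0.315%, 0.316% and 0.319% of counts in control libraries and 0.383%, 0.407% and 0.403% in overexpressing libraries. This share weighs CCN1 most, which had 54011 to 74993 counts per library, followed by WWTR1 and AXL, neither of them called. ANKRD1, with 533 to 1762 counts, had the fewest and hardly enters it. LUM, a matrix proteoglycan, and GGT1, a brush border enzyme, were fixed as markers of fibroblast and proximal tubule, and each was the single gene of its list called higher. The other tested genes were not called, with log2 fold changes of 0.09 for COL1A1 and -0.39 for PDGFRB among the fibroblast markers, and of 0.74 for SLC34A1, 0.17 for SLC5A2 and -0.21 for ANPEP among those of proximal tubule. LUM went from 33.2, 34.6 and 33.0 CPM to 48.0, 50.3 and 51.0 CPM (log2 fold change 0.57, standard error 0.06), and GGT1 from 117, 112 and 85.1 CPM to 164, 137 and 158 CPM (log2 fold change 0.55, standard error 0.12). The fibroblast collagen COL1A2 had no count in any library. N-cadherin (CDH2) was between 195 and 223 CPM in control and between 245 and 258 CPM in overexpressing libraries, whereas E-cadherin (CDH1) was at most 0.206 CPM in both.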
